A study of Mus musculus with 12 samples.

Results

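The olfactory receptor genes of mouse chromosome 2 were examined in maps of CTCF binding in liver. Members were the 286 protein-coding genes of chromosome 2 with the symbol Olfr plus digits, of 21900 protein-coding genes with a position in the annotation. The other 1496 protein-coding genes of chromosome 2 were the main comparison, and the 820 olfactory receptor genes on other chromosomes a further one. Olfr367-ps is annotated as protein-coding but carries a pseudogene symbol, and it was counted among the other genes. Peak lists hold no RNA level, so whether any receptor gene was expressed in these livers was not measured.

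CTCF-bound DNA was isolated with an antibody and sequenced (ChIP-seq) from whole livers of wild-type (WT) male C57BL6/Ncrl mice aged 3 to 4 months and kept on normal chow. The starved group had gone without food for 24 h, with livers taken at ZT13 (zeitgeber time, hours after lights on), and the fed group had eaten freely, with livers taken at ZT16. Each group had 3 ChIP libraries made with the same antibody lot and 1 peak list for each library. Feeding and collection time differed together and cannot be told apart. The starved lists held 23926 to 30752 peaks and the fed lists 49030 to 74950, and the number of reads behind each list is unknown. Whether a group's libraries are separate animals is not stated, and the p-values therefore cover no more than the differences among these libraries, which may be technical. Whole liver mixes several cell types, and in bulk chromatin a site bound in few cells and a site bound weakly in many cannot be told apart.

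Olfactory receptors are G protein-coupled receptors that detect odours in the nose. Their genes are short, lie in tandem arrays, and are largely silent outside the olfactory epithelium, while each olfactory sensory neuron expresses a single receptor. CTCF is a zinc finger protein that, together with the ring-shaped cohesin complex, marks the anchors of chromatin loops and the boundaries between domains.

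The 286 receptor genes fell into 3 clusters, taken as runs of receptor genes no more than 500 kb apart. Cluster 1 ran from Olfr338 to Olfr368 (mm10, chromosome 2, 36376778 to 37332732) and held 27 receptor genes. Cluster 2 ran from Olfr987 to Olfr1274 (85330967 to 90401674) and held 222. Cluster 3 ran from Olfr1275 to Olfr1318 (111230853 to 112157007) and held 37. Within a cluster, neighbouring receptor genes were at most 140.1 kb apart, and the gaps between clusters were 20.8 and 48.0 Mb, so the limit of 500 kb did not decide which genes fell together. With edges of 50 kb beyond the outer genes the clusters covered 7.25 Mb, or 4.05% of the annotated span of the chromosome. The receptor genes had a median length of 945 bp, and 252 of them were no longer than 2 kb.

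Of the 286 receptor genes, 4 had a CTCF site of any library within 5 kb of the gene body. Peaks of the 6 lists that overlapped by at least 1 bp had been merged into sites. Among the other protein-coding genes of chromosome 2, 1283 of 1496 (85.8%) had such a site. Among olfactory receptor genes on other chromosomes it was 65 of 820 (7.93%). A site called in all 6 libraries lay within 5 kb of 1 receptor gene, against 2.32% of receptor genes on other chromosomes and 53.9% of the other genes of chromosome 2. The site lay over the gene body itself for 1 receptor gene, Olfr1161, and for 1139 of the other genes. Those genes are longer (median 21392 bp), and a long gene offers more room for a site. Among the 63 other genes of chromosome 2 that were no longer than 2 kb, 47 (74.6%) had a site within 5 kb.

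The 4 receptor genes were Olfr1161, Olfr347, Olfr1009 and Olfr1036, each encoding an odorant receptor, with the nearest site at 0, 1.05, 3.16 and 4.58 kb. The next genes just outside the limit of 5 kb were Olfr368 at 5.89 kb and Olfr1066 at 8.23 kb. The start of Olfr1161 was the one receptor promoter with a site over it, of 244 promoter sequences in RefSeq (build GRCm38.p6, 250 bases before to 50 after an annotated start) that covered 242 of the 286 members. Of 1624 promoters of other protein-coding genes on chromosome 2, 649 (39.96%) had a site over them. The promoter window follows the annotated start, and 227 of the 286 lengths are multiples of 3, as coding lengths are, so for models without untranslated sequence the start of transcription can lie outside it.

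The promoter sequences are shown 5′ to 3′ for Olfr1161, where capitals mark the 56 bases under the merged CTCF site, and for Olfr1009, the 1 member with a site of all 6 libraries in its window, which has no capitals because that site lies beyond the promoter. They are also shown for Olfr1199 and Olfr1253, which were chosen after the search because their promoters matched the CTCF core pattern, in capitals.

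Olfr1161, chr2:88024452-88024751, plus strand: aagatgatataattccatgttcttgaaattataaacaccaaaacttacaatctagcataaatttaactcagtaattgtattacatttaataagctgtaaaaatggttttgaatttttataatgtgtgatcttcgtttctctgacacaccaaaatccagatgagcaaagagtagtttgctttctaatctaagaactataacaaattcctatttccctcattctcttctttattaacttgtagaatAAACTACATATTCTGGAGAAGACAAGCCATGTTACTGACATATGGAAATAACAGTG

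Olfr1009, chr2:85721157-85721456, plus strand: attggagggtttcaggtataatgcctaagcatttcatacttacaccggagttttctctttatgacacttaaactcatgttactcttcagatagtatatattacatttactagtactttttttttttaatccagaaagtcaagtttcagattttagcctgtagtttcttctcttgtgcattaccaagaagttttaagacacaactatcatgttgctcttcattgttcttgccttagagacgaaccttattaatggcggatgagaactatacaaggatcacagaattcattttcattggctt

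Olfr1199, chr2:88759947-88760246, minus strand: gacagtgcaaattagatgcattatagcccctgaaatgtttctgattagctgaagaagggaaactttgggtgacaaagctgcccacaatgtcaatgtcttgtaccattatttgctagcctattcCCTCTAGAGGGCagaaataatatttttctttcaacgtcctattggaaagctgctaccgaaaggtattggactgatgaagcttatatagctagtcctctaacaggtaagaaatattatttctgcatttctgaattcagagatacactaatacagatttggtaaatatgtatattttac

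Olfr1253, chr2:89752777-89753076, minus strand: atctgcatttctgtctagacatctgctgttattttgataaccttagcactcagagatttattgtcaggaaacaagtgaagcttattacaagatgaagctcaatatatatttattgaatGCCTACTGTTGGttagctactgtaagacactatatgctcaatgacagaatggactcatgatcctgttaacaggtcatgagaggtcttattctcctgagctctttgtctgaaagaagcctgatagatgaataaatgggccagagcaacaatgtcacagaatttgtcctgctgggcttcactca

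The pattern searched was CCNNNAGNNGGC, with N for any base, on both strands. It was found in 2 of the 244 receptor promoters (0.82%), against 12.1% of the promoters of other chromosome 2 genes and 8.61% of all 32851 promoters. At receptor genes of other chromosomes it was found in 5 of 700 promoters (0.71%). In Olfr1199 the match lay on the printed strand and in Olfr1253 on the opposite strand. Neither gene had a site within 5 kb, and the Olfr1161 window held no match, which says only that these letters are not in it. The receptor promoters had a median GC content of 32.7%, against 58.0% for the other genes of chromosome 2, and a median of 1 CpG against 16. Over all promoters the medians were 52.7% and 7 CpG. A run of 50 bases found also in the promoter of another gene occurred in 14.3% of receptor promoters. It occurred in 4.37% of those of other chromosome 2 genes and in 7.91% of all promoters. Receptor promoters on other chromosomes had a median GC content of 36.7%, a median of 1 CpG and such a run in 13.3%. The treatment of reads that match more than 1 place (not given in the sources used here) bears on repeated sequence, and the part of shared sequence or base composition in the low number of peaks was not tested.

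In every library the receptor clusters held fewer peaks per Mb than the rest of chromosome 2. The clusters with their edges held 9, 7 and 9 peaks in starved libraries 1, 2 and 3, against 12, 12 and 14 in fed libraries 1, 2 and 3. Per Mb this was 1.24, 0.97 and 1.24 in the starved libraries, where the rest of the chromosome had 13.3, 10.6 and 13.2. In the fed libraries it was 1.65, 1.65 and 1.93, where the rest had 24.2, 21.4 and 33.0. The log2 ratio of the clusters over the rest of the chromosome was −3.66 ± 0.28 (SD, n = 6 libraries) and negative in 6 of 6. A two-sided exact sign-flip permutation test over the 6 libraries gave p = 0.03125, the smallest it can give, and 0.12 after Benjamini-Hochberg adjustment over the 6 tests made. The libraries share 1 genome, so this test speaks of the spread between libraries and not between clusters.

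**Figure D1:**
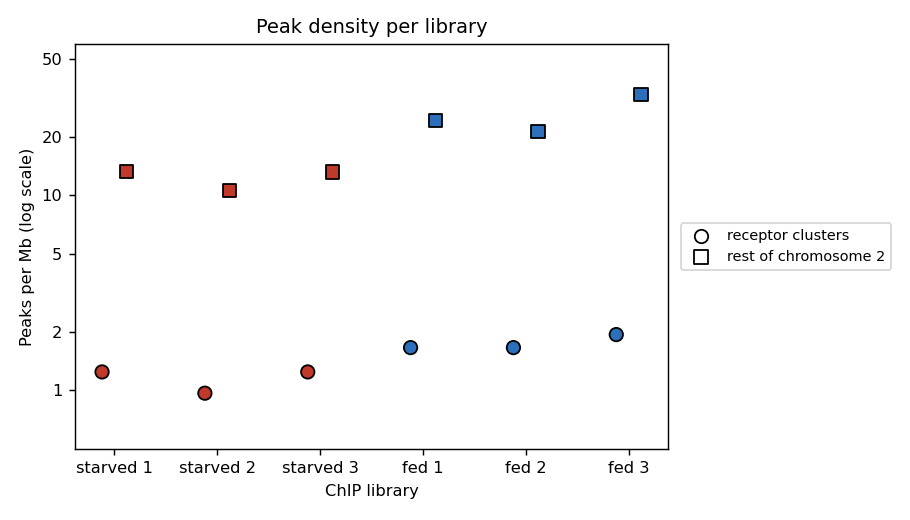
Peaks per Mb (log axis) in the receptor clusters (circles) and in the rest of chromosome 2 (squares) for each ChIP library, with starved libraries in red and fed libraries in blue. Every circle lies below its square, at 0.97 to 1.93 peaks per Mb against 10.6 to 33.0.

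All 14 sites of the clusters can be named, and 7 of them were called in all 6 libraries. A further 2 were called in all 3 fed and 2 starved libraries, 3 in the fed libraries alone, and 2 in a single fed library. No site was called in starved livers alone; in the rest of chromosome 2 that held for 0.157% of sites. Of the 14, 10 lay between the first and last receptor gene of a cluster and 4 in the edges.

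**Figure D2:**
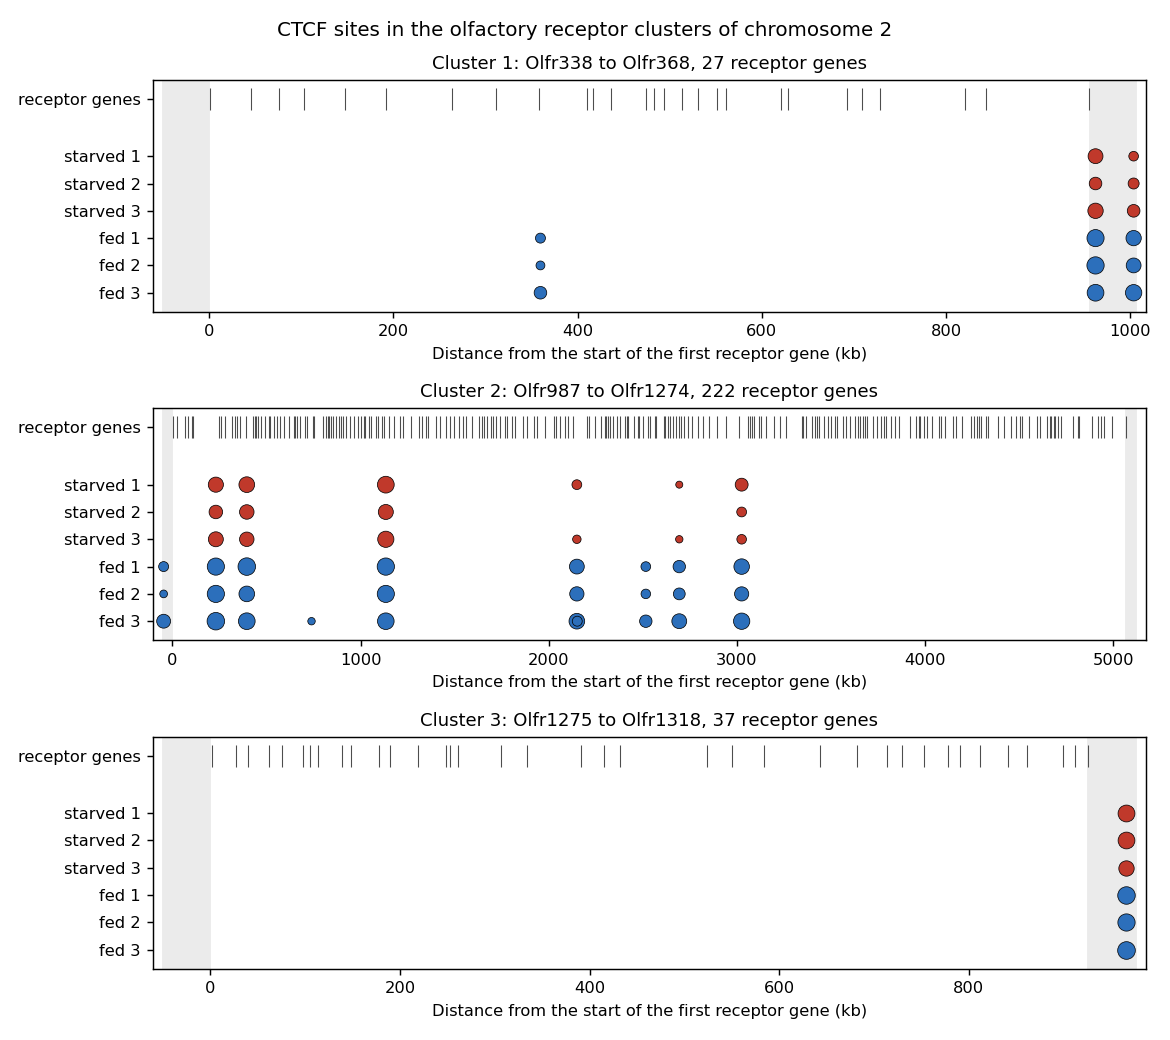
The 3 clusters to scale, each with its own horizontal axis in kb from its first receptor gene; ticks mark receptor genes, dots mark peaks in each library (starved red, fed blue), a larger dot has a higher score rank, and grey bands are the edges of 50 kb. Cluster 3 and the distal part of cluster 2 have no dot between their receptor genes.

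Cluster 1 held a single weak site among its genes and its stronger sites at the distal edge. The site 1.05 kb from Olfr347 (36736315 to 36736532) had no peak in any starved library, and its score ranked at the 20.7, 13.5 and 40.9 percentile of fed lists 1, 2 and 3. Score ranks place a peak within its own list by the authors' peak score, and since the lists differ in length a rank in one cannot be set against a rank in another as a change. The site 5.89 kb beyond Olfr368 (37338624 to 37339367), between that gene and Pdcl, a phosducin-like protein that acts on G protein subunits, was called in all 6 libraries. Its ranks were 62.2, 40.7 and 67.0 in starved libraries and 86.6, 88.1 and 82.3 in fed libraries. The next site outwards lay inside Rc3h2, which encodes an RNA-binding protein of the roquin family (37379955 to 37380759), and ranked at 18.5, 28.0 and 41.4 in starved and 66.3, 61.6 and 78.0 in fed libraries. On the proximal side no site lay within 50 kb of Olfr338, and the first was 99.7 kb away towards Ptgs1, the gene of cyclooxygenase 1 (36276407 to 36277096, called in all 6 libraries).

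Cluster 2 held most of the sites, and the 4 called in all 6 libraries lay before Olfr1178. The site between Olfr995 and Olfr996 (85561046 to 85561766) ranked at 64.8, 49.2 and 63.0 in starved and 87.2, 87.6 and 91.3 in fed libraries. The site 3.16 kb from Olfr1009 (85725512 to 85726238) ranked at 70.9, 58.4 and 58.2 in starved and 91.5, 70.3 and 81.7 in fed libraries. The site 8.23 kb from Olfr1066 (86464500 to 86465276) ranked at 82.6, 63.6 and 76.1 in starved and 88.3, 86.8 and 80.5 in fed libraries. It overlapped the receptor pseudogene Olfr1069-ps1, and together these 3 sites had the highest ranks inside the cluster. The site 15.6 kb from Olfr1176 (88356091 to 88356768) was weaker, with ranks of 43.5, 19.5 and 18.2 in starved and 68.7, 55.2 and 77.5 in fed libraries.

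The other sites of cluster 2 were called in fewer libraries. The site over the start of Olfr1161 (88024696 to 88024977), whose promoter is printed above, ranked at 3.62 and 5.36 in starved libraries 1 and 3, had no peak in starved library 2, and ranked at 39.1, 34.4 and 62.0 in fed libraries 1 to 3. The site 22.1 kb from Olfr1126 (87480211 to 87480604) lay 8.48 kb from Pramel7, a gene of the Prame-like family, and was called in the same 5 libraries, with ranks of 19.4 and 11.1 in starved libraries 1 and 3 and of 61.8, 56.2 and 70.5 in the fed libraries. Called in the 3 fed libraries alone were the site 10.1 kb from Olfr1151 (87846822 to 87847118), which overlapped the pseudogene Olfr1150-ps1, with ranks of 18.8, 17.7 and 39.1, and the site 47.0 kb outside Olfr987 (85283681 to 85284007), with ranks of 20.7, 7.15 and 52.4. Fed library 3, the longest list, alone held a site 4.58 kb from Olfr1036 (rank 5.59) and another 24.3 kb from Olfr1126 (rank 20.4). Fads2b, Pramel7 and Pramel6, the 3 other protein-coding genes inside the cluster, had no site within 5 kb.

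Cluster 3 had no site of any library between its 37 receptor genes. Its 1 site lay in the distal edge, 39.5 kb beyond Olfr1318 (112196551 to 112197365), and had the highest mean rank of the 14, at 83.7, 82.8 and 67.2 in starved and 91.1, 88.1 and 92.8 in fed libraries. The next site outwards was 58.9 kb from Olfr1318, just beyond the limit of 50 kb. On the proximal side the first site was 171.7 kb from Olfr1275 (111058379 to 111059133), inside the protein-coding gene A26c3, and was called in all 6 libraries.

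**Figure D3:**
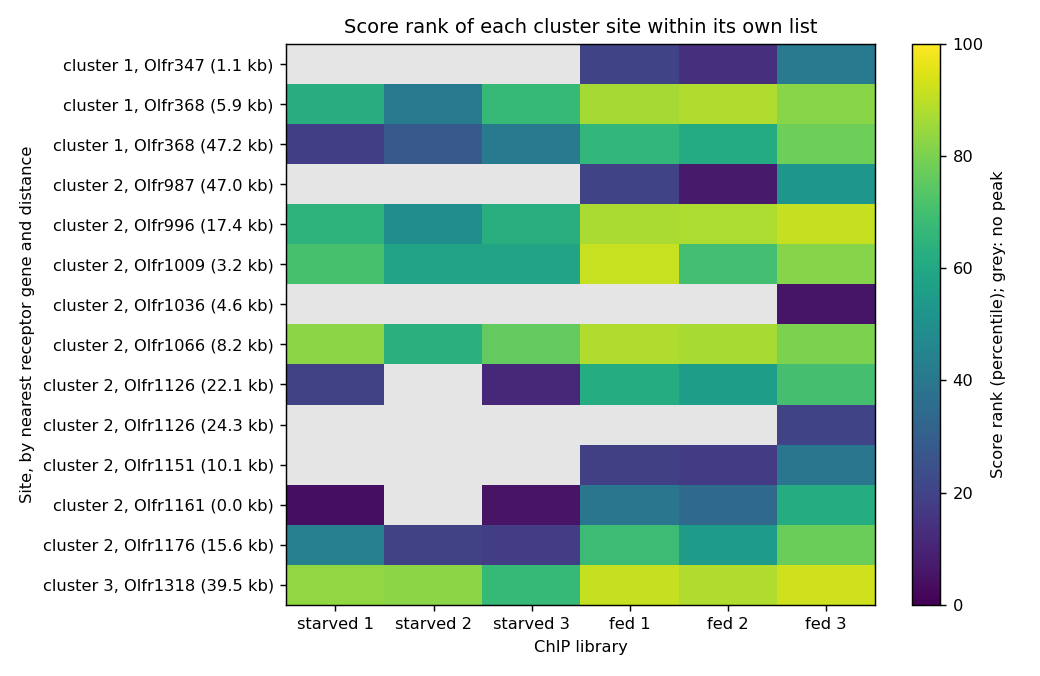
Score rank (percentile within the library's own list, colour scale from 0 to 100) of the 14 cluster sites, 1 row per site in map order with its nearest receptor gene and distance, and 1 column per library with starved left of fed; grey marks no peak. The 7 rows filled in every column are the sites called in all 6 libraries, and the 2 rows filled in a single column are those of fed library 3.

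The receptor genes lay in long stretches between sites called in all 6 libraries. These sites divided the 286 genes into 7 segments, some of which held sites called in fewer libraries. The longest ran over 2118 kb with 84 receptor genes, from Olfr1178 to Olfr1274, and no library had a peak in it. It was the third longest of the 3403 stretches of chromosome 2 between sites called in all 3 fed libraries, which had a median length of 19.1 kb. Another segment of 1891 kb held 80 genes, from Olfr228 to Olfr1176. Sites called in all 3 fed libraries split it into stretches of 1015, 366, 178 and 331 kb. The segment of cluster 3 ran over 1137 kb with 37 genes, and no library had a peak in it. The other segments held 27 genes over 1062 kb, 44 over 738 kb, 8 over 164 kb and 6 over 314 kb. The fed site near Olfr347 split the segment of 1062 kb into stretches of 459 and 602 kb. The segment of 738 kb held the site near Olfr1036, and that of 314 kb the site outside Olfr987. Long stretches were not particular to receptors: the longest of all, 2885 kb between 174937269 and 177822037, held no receptor gene and 26 other protein-coding genes, several of them zinc finger genes such as Zfp965 and Zfp966.

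Measured from each gene, the nearest site called in all 3 fed libraries was a median of 224.8 kb away for the receptor genes of chromosome 2, 90.9 kb for receptor genes on other chromosomes, and 0 kb for the other genes of chromosome 2. The distance was taken from the gene body, and a long body offers more room for a site. For the 63 other genes no longer than 2 kb the median was 3.67 kb, and 1 of them was over 100 kb away. Of the receptor genes, 212 of 286 (74.1%) were over 100 kb from a site called in all 3 fed libraries. This held for 386 of 820 (47.1%) on other chromosomes and 42 of 1496 (2.81%) of the other genes. Large distances were not particular to chromosome 2. Among other chromosomes with at least 20 receptor genes, the median ran from 34.7 kb on chromosome 1 to 320.4 kb on chromosome 9 and 358.6 kb on chromosome 17. By cluster the median was 144.3 kb in cluster 1, 227.5 kb in cluster 2 and 276.0 kb in cluster 3. The farthest receptor gene was 1056 kb away, in cluster 2. Genes of a cluster share the same few sites and are not independent, so these distances are a description without a test.

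**Figure D4:**
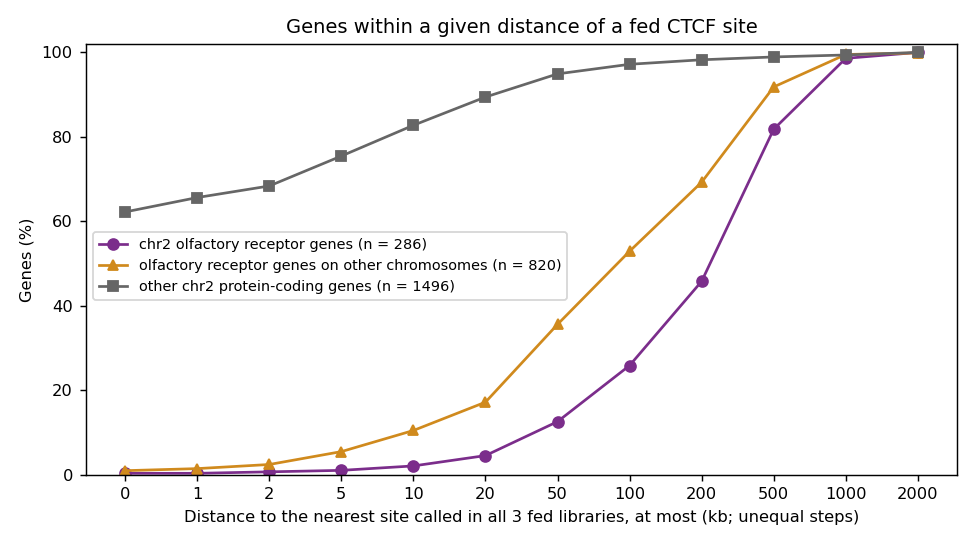
Share of genes (%) within a given distance (kb, in unequal steps) of a site called in all 3 fed libraries, for receptor genes of chromosome 2 (circles), receptor genes on other chromosomes (triangles) and other protein-coding genes of chromosome 2 (squares). At 100 kb the shares are 25.9%, 52.9% and 97.2%.

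Just inside the clusters fed sites were missing, and outside them their number varied from edge to edge. Counted by site centre and summed over the 6 edges, the outermost 200 kb of the clusters held no site called in all 3 fed libraries, and the next 100 kb inwards held 1. The clusters with their edges held 1.65 fed sites per Mb and the rest of chromosome 2 held 19.8. The edges of 50 kb alone held 4 of the fed sites of the clusters, so the stretches between receptor genes were sparser than the pooled value. Without edges the log2 density ratio of peaks was −4.20, against −3.66 with them. At the cluster density few sites fall in such short steps, so the empty steps were not read as a trait of the edges. Outside, the first 100 kb held 8, the second 12, the third 14, the fourth 18 and the fifth 20. Each step sums 100 kb from each of 6 edges and is to be read against the 19.8 fed sites per Mb of the rest. The lower counts near the clusters were therefore not read as a depletion. Sites called in all 6 libraries did not follow that order, with 7, 5, 4, 12 and 12 over the same steps. Single edges held between 0 and 3 fed sites in the first 100 kb and between 0 and 9 in the fifth, where the proximal edge of cluster 2 gave 9 of the 20. The nearest site of all 6 libraries was 99.7, 83.7 and 171.7 kb from the proximal ends of clusters 1, 2 and 3 and 5.89, 72.7 and 39.5 kb from the distal ends. The site beyond the proximal end of cluster 2 (85246248 to 85247261), towards Lrrc55, an accessory subunit of potassium channels, had the highest fed rank of the 6, with a mean of 89.2 in the starved and 97.2 in the fed lists. The site beyond Olfr1274 (90474402 to 90475539) lay inside Ptprj, a receptor tyrosine phosphatase gene.

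**Figure D5:**
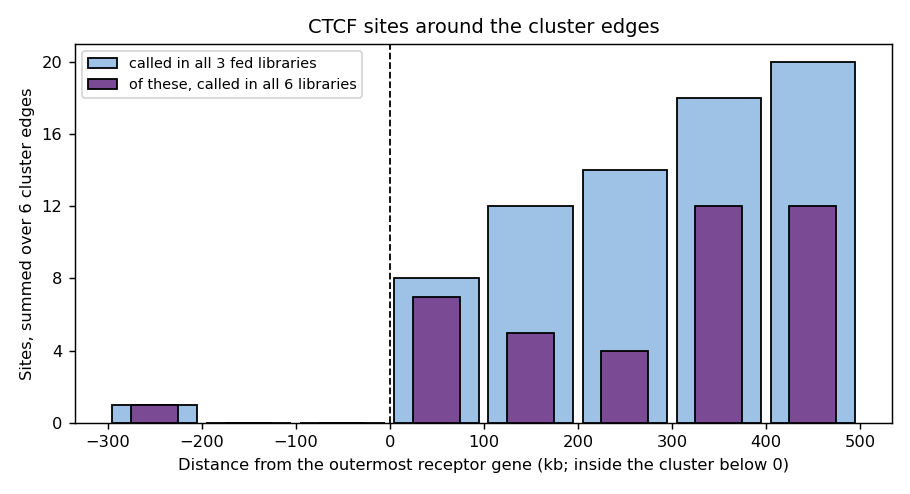
Number of sites called in all 3 fed libraries (wide bars) and, of these, in all 6 libraries (narrow bars), in steps of 100 kb from the outermost receptor gene, summed over the 6 edges; distances below 0 lie inside a cluster. Outside, the wide bars run from 8 to 20 and the narrow bars from 7 over 4 to 12, and the 2 steps just inside are empty.

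The comparison of starved with fed livers asked whether the few receptor sites behaved like others. The number of receptor genes with a peak within 5 kb was 2, 1 and 2 in starved libraries 1 to 3 and 3, 3 and 4 in fed libraries 1 to 3. The groups did not overlap, with means of 1.67 ± 0.58 in starved and 3.33 ± 0.58 in fed libraries (SD, n = 3 each), a log2 ratio of −1. The number of cluster peaks was 8.33 ± 1.15 in starved and 12.7 ± 1.15 in fed libraries, a log2 ratio of −0.60, with no overlap. The rest of chromosome 2 had 2121 ± 258 peaks in starved and 4500 ± 1043 in fed libraries, which did not overlap either. In both, the two-sided exact permutation test gave p = 0.1 (adjusted 0.12), the smallest that 3 libraries against 3 allow. Over the other genes of chromosome 2 the share with a peak was also lower after starvation, at 60.2 ± 4.54% against 80.5 ± 4.52% in fed libraries. Relative to that share, the share of receptor genes differed by −0.64 on the log2 scale (−6.76 ± 0.47 in starved and −6.12 ± 0.16 in fed libraries, exact permutation p = 0.1, adjusted 0.12). This value rests on 1 to 4 genes per library and had the opposite sign with lists of equal length (0.017) and with a stricter score limit (0.38).

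Most cluster sites of fed livers were called again after starvation, at a share near that of the rest of chromosome 2. Of the 12 cluster sites called in all 3 fed libraries, 9 were called in 1 or more starved libraries, where the rest of chromosome 2 had 70.2%. All 3 starved libraries called 7 of the 12, against 49.2% in the rest. The 3 with no starved peak compare with 29.8% in the rest, so these counts are near the background. By library, 75.0, 58.3 and 75.0% of the cluster fed sites had a peak in starved libraries 1, 2 and 3, against 63.7, 51.9 and 63.9% of the other fed sites. The mean difference was 9.60 ± 2.76 percentage points (SD, n = 3; two-sided exact sign-flip p = 0.25, the smallest possible, and 0.25 adjusted), where a single site is worth over 8 points. With lists of equal length the difference was −15.0 points.

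Fed sites of the clusters had a median fed rank of 67.9, against 61.3 in the rest of chromosome 2. The 3 cluster sites with a mean fed rank up to 30 had no starved peak; elsewhere on the chromosome 8.06% of such sites had one. The site over Olfr1161 alone ranked between 30 and 50 and was called in 2 starved libraries. Elsewhere on the chromosome 277 of 783 such sites (35.4%) had a starved peak, and 10 of them had one in all 3 starved libraries. All 3 cluster sites between 50 and 70 and all 5 above 70 had a starved peak, against 738 of 820 and 1330 of 1330 elsewhere. Over all peaks, the median rank of cluster peaks was 10.9 ± 8.75 percentile points above that of other chromosome 2 peaks (SD, n = 6), and above it in 5 of 6 libraries, starved library 2 being the exception (exact sign-flip p = 0.0625, adjusted 0.12). At a stricter score limit this difference was −1.38.

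Of the 3 receptor genes with a site called in all 3 fed libraries, Olfr347 had no starved peak there, where the share over other chromosome 2 genes with a fed site was 11.9%. That share was 6 of 38 (15.8%) over those no longer than 2 kb, and 16 of 45 (35.6%) over receptor genes on other chromosomes. A gene counted only if none of its fed sites had a starved peak, so long genes with several sites count less readily. Olfr1009 kept its site in all 3 starved libraries and Olfr1161 in 2. With a window of 20 kb it was 3 of 13 receptor genes with a fed site, some of which share a site, against 5.53% of other genes, and with a window of 1 kb it was 0 of 1, against 147 of 982 other genes.

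The direction of the difference between starved and fed livers in how sparse the clusters were was not the same in whole lists and in lists of equal length. The log2 density ratio of clusters over the rest was −3.43 ± 0.03 in starved and −3.89 ± 0.20 in fed libraries, a difference of 0.46 (exact permutation p = 0.1, a comparison added after the data were seen). In lists of equal length, which keep the 23926 best-scored peaks of each library, it was −3.59 ± 0.11 in starved and −3.26 ± 0.003 in fed libraries, a difference of −0.33 with the same p; the cause of the change in direction was not tested. There the clusters held 6, 7 and 6 peaks in starved libraries 1 to 3 and 8 in each fed library, and Olfr1009 alone had a peak within 5 kb in every library.

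Genes that work with olfactory receptors lay near CTCF sites, as most protein-coding genes did. Of 25 genes of receptor choice, trafficking and signalling, 23 had a site of any library within 5 kb, 22 had a site called in all 3 fed libraries, and 17 a site called in all 6. Over all protein-coding genes other than receptors the shares were 78.2%, 69.3% and 50.1%. Of the 22 genes 0 lacked a starved peak, where the share over all such genes was 11.6%. On chromosome 2, Ebf4, a transcription factor of the Ebf family, had 3 sites, of which 2 were called in all 6 libraries; the better (130291266 to 130292261) had a mean rank of 65.6 in starved and 85.0 in fed lists. Lhx2, the homeodomain factor that binds receptor enhancers in olfactory neurons, had 1 site, which was not called in all 3 fed libraries. The best-ranked sites of all 6 libraries lay at Ebf1, at 92.0 in starved and 98.1 in fed lists, Kdm1a, a histone demethylase, at 90.1 and 96.5, and Slc24a4, a sodium, calcium and potassium exchanger of olfactory neurons, at 88.7 and 96.5. Cngb1 and Cnga4, subunits of the olfactory cyclic nucleotide-gated channel, followed at 84.0 in starved and 96.8 in fed lists and at 80.8 and 98.4, and Gnal, the G protein subunit coupled to the receptors, at 88.3 and 88.7. Gng13 and Rtp2 had no site.

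Without RNA levels the liver label could not be checked by expression. Counted as genes with a site within 5 kb, marker lists gave 4 of 4 for olfactory sensory neurons, 8 of 8 for hepatocytes, 2 of 4 for lymphocytes, 5 of 5 for endothelium, 3 of 5 for cholangiocytes, 4 of 5 for hepatic stellate cells and 0 of 6 for Kupffer cells. These counts are read against the 78.2% of all genes other than receptors that had a site, and such a site does not show that the cell type was present.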

How the data were processed

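Livers were snap-frozen and the ChIP libraries prepared, per the labels' protocols, with MicroPLEX v2. The authors deposited 1 peak list per library with a score per peak; its definition was left unstated. The submitters' processing notes name the build mm10 and, without roles or order, MACS2, HOMER, BWA 0.7.5a, bedtools 2.17, SAMtools and FastQC. The depth of reads, the treatment of multiply matching reads and the use of the inputs (3 per group, not analysed here) were likewise unstated. The length of a list moves with depth and enrichment.

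Overlapping peaks (1 bp or more) of all 6 lists were merged into sites. Gene positions and promoters came from RefSeq (GRCm38.p6, the same build as mm10), and coordinates count from 1. Scores served to rank peaks within a list as percentiles. Groups and replicate numbers came from the sample titles. Tests were two-sided exact permutations over libraries with Benjamini-Hochberg adjustment over 6 tests. They used 20 labellings, 64 sign patterns over 6 libraries, or 8 sign patterns over the 3 starved libraries. Named were all clusters and edges, members with a site in 5 kb, and genes of the pathway list on chromosome 2 or best ranked. Members and lists were chosen with earlier results of these data known. Alternatives tried were peaks scoring above the median of 30.4, equal list length, a trim of peaks to 200 bp, merging over gaps up to 500 bp, fed sites of at least 2 libraries, windows of 1 and 20 kb or of 5 kb around the gene midpoint, comparison genes no longer than the longest receptor gene, a gap of 200 kb, no edges, leaving out single libraries and a replicate block. Functions were tested on simulated data. Work was done in Python 3.11.15 with scipy 1.17.1, matplotlib 3.10.9, numpy 2.4.6 and pandas 2.3.3.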

Additional observations from a re-analysis of the deposited data

How the results depend on the processing

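The log2 density ratio of the clusters over the rest of chromosome 2 was negative throughout. Under 5 settings it lay between −4.20 (no edges) and −3.43 (equal list length). The trim of peaks and the gap of 200 kb left it at the main value of −3.66. Each setting gave an exact sign-flip p of 0.03125, the smallest possible, which 6 ratios of the same sign always give. Leaving out 1 library gave −3.71 to −3.57 with an exact sign-flip p = 0.0625, the smallest that 5 libraries allow. The starved to fed comparison of receptor genes relative to other genes was 0.38 at the stricter score limit and 0.017 with lists of equal length, the score rank difference was −1.38 at the stricter limit, and the difference in fed sites kept was −15.0 points with equal lists. The relative comparison was −0.13 (exact permutation p = 0.6) with windows around the gene midpoint and −0.42 with a window of 20 kb. The rank difference was 2.35 with equal lists and 4.76 without edges, and the difference in sites kept was 1.39 points at the stricter limit and 20.1 with fed sites of at least 2 libraries. The log2 ratio of cluster peaks was −0.94 at the stricter limit and −0.34 with equal lists. The cause of these changes was not tested. The number of receptor genes with a fed site and no starved peak was 0 of 1 at the stricter limit, with equal lists and with a window of 1 kb, against 206 of 881, 7 of 798 and 147 of 982 other chromosome 2 genes with a fed site, and 3 of 13 with a window of 20 kb, against 5.53%. Leaving out 1 library at a time gave log2 ratios of −1.15 to −0.74 for receptor genes with a peak, −0.66 to −0.49 for cluster peaks and −0.78 to −0.37 for the relative share, differences of 8.74 to 18.2 points in fed sites kept and of 8.27 to 13.4 in rank, and always 1 gene without a starved peak. Receptor genes with a peak did not differ with equal lists (log2 ratio 0).

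Exchanging labels only within a replicate number (the replicate block) left the values at −1, −0.60 and −0.64, with an exact permutation p = 0.25, the smallest it allows. Same-numbered libraries did not deviate together (r between −0.01 and 0.09 over 22131 sites of all 6 libraries). Starved and fed libraries with unlike numbers gave r between −0.13 and 0.09, so the numbers were not taken as pairs. The relative share could not be computed with a window of 1 kb, where a library had no receptor gene with a peak. With 14 sites in all a single site moves most of these values, and 3 libraries against 3 cannot give an exact p below 0.1.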

Other observations

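Other tandem gene families were counted in the same way, a choice made after the data were seen and given as values with no test. Of 230 Vmn1r and 123 Vmn2r vomeronasal receptor genes, 4 (1.74%) and 5 (4.07%) had a site of any library within 5 kb, and of 35 Tas2r bitter taste receptor genes 2 (5.71%). Over 100 kb from a site called in all 3 fed libraries were 77.0% of the Vmn1r, 61.0% of the Vmn2r and 34.3% of the Tas2r genes. The share was 6 of 15 (40.0%) for Taar genes, the trace amine-associated receptors of the olfactory system, 7 of 56 (12.5%) for Krtap keratin-associated protein genes, 10 of 42 (23.8%) for Defb defensin genes and 289 of 367 (78.7%) for zinc finger genes named Zfp plus digits.

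Among olfactory receptor genes of other chromosomes with at least 20 members, the share with a site ran from 0 of 28 on chromosome 6 to 4 of 24 (16.7%) on chromosome 4, with 26 of 237 on chromosome 7 and 3 of 129 (2.33%) on chromosome 9. Of the 91 receptor genes with a pseudogene symbol or biotype on chromosome 2, 2 had a site within 5 kb, and in both it lay over the pseudogene itself.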
